A study of Mus musculus with 55 samples.

Results

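Soleus and extensor digitorum longus (EDL) are a pair of lower-leg muscles built for different work, and the data described here are their messenger RNA levels in wild-type mice at 2 months of age. The 4 soleus libraries of that genotype and age and the 4 EDL libraries were chosen by their labels, which makes 8 of the 55 libraries of a series on mdx and wild-type hindlimb muscle. Of 24453 genes in the table, 12541 reached an average of 0.5 RPKM across all libraries and were tested. RPKM is reads per kilobase of transcript for each M (mega) of mapped reads, so levels can be set side by side between genes. The other groups used are wild-type soleus and EDL at 5 months, soleus and EDL of mdx mice at 2 months, each with 4 libraries, and wild-type flexor digitorum brevis (FDB), a foot muscle, at 2 months (4 libraries). The mdx mouse lacks full-length dystrophin in every tissue. The labels name no transgene and no agent in any of these groups. The labels give no strain or sex, and do not say whether libraries came from separate animals or were pooled. The p-values thus speak only to how much libraries vary, and some of that variation may be technical. In the main fit that spread was taken from all 55 libraries in 12 groups, not from the 8 compared alone.

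Skeletal muscle is a mosaic of fibres that differ in contraction speed and in fuel. Slow type I fibres contain the Myh7 myosin, are rich in mitochondria and burn fatty acids; the fast types IIA, IIX and IIB contain Myh2, Myh1 and Myh4 myosin and rely increasingly, in that order, on glycolysis. Mouse soleus is a postural muscle of type I and IIA fibres with few IIB, and EDL is a fast muscle of IIB and IIX fibres.

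Both labels fitted the fibre-type markers in every library. Myh7, the slow myosin heavy chain, was at 1721, 1820.0, 1642 and 1821 RPKM in soleus and 1.28, 1.76, 2.72 and 1.43 RPKM in EDL. Myh4, the IIB myosin, was at 372, 421, 274 and 476 RPKM in soleus and 9623, 9893, 9215 and 8977 RPKM in EDL. The lowest soleus value of Myh7 was far above the highest EDL value, and Myh4 was the other way round. Library columns are named here by the authors' numbers, ns25 to ns28 for soleus and ns41 to ns44 for EDL, and lists of 4 values follow that order. Depth, read from the value of 1 read in genes of known length, was 50.9 to 66.4 M reads in soleus and 32.7 to 51.7 M in EDL. Low genes were thus measured with fewer reads in EDL. A gene of 1 kilobase with 3 reads would show 0.045 to 0.059 RPKM in soleus and 0.058 to 0.092 RPKM in EDL. Pearson's r across genes was 0.9918 to 0.9971 within soleus, 0.9949 to 0.9967 within EDL and 0.9402 to 0.9494 between the muscles. Soleus library ns25 stood slightly apart (r of 0.9918 to 0.9927 with the other soleus libraries, against 0.9966 to 0.9971 among those), with 53 genes at least 2-fold above the mean of the other 3. Counts of list members that moved by more than 1.5 times without it are given in both forms.

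The expressed genome differed widely between the muscles. With a threshold of 0.05 on the adjusted p, 4073 genes (32.5% of those tested) were higher in soleus and 2487 (19.8%) lower. At least 2-fold differences were fewer, 410 genes higher in soleus (3.27%) and 297 lower (2.37%), and at least 8-fold differences were found for 36 genes higher and 15 lower. The median log2 difference of all genes, soleus minus EDL on the log2(RPKM + 1) scale used throughout, was 0.06 (0.0606). The split between directions depends on scaling: 62.1% of called genes were higher in soleus as deposited, 49.5% after median-of-ratios scaling and 48.7% after quantile normalization. Lists of genes are to be read against those 32.5% higher and 19.8% lower. The lists were chosen with earlier results of these data known, so their counts are descriptions. The 10 most abundant genes held 16.3% to 17% of the summed RPKM in soleus and 26.9% to 29.0% in EDL, so RNA was more concentrated in EDL. Library values of soleus and EDL did not overlap for 4345 genes higher in soleus (34.6%) and 2592 lower (20.7%).

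The 4 adult myosin heavy chain genes divided the muscles. Myh7 (chromosome 14, 54970684 to 54994626, mm10) was 975-fold higher in soleus (log2 difference 9.32 ± 0.41 SE, adjusted p = 3.14e-24). Myh2, the IIA myosin (chromosome 11, 67171027 to 67197517), was at 2736, 2372, 2888 and 2491 RPKM in soleus and 174, 134, 109.7 and 125 RPKM in EDL, 19.4-fold higher in soleus (log2 difference 4.28 ± 0.24 SE, adjusted p = 2.08e-20). Myh1, the IIX myosin that lies between Myh2 and Myh4 on the same chromosome (chromosome 11, 67200052 to 67224575), was at 741, 1595, 816 and 1383 RPKM in soleus and 1449.6, 1456, 1407 and 1392 RPKM in EDL. The soleus libraries fell either side of the EDL ones for Myh1, and the difference did not pass (−0.41 ± 0.23 SE, adjusted p = 0.127); without soleus library ns26 it did (−0.60, adjusted p = 0.0317). Myh4 (chromosome 11, 67238029 to 67260446) was 24.5-fold lower in soleus (log2 difference −4.64 ± 0.75 SE, adjusted p = 9.81e-07).

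As a share of the summed RPKM of these 4 genes, Myh7 made up 29.2% to 30.9% in the soleus libraries and 0.0114% to 0.0253% in the EDL libraries. Myh2 made up 38.2% to 51.4% in soleus and 1.02% to 1.55% in EDL. Myh4 made up 4.87% to 7.71% in soleus and 85.5% to 86.1% in EDL. Within soleus, Myh7 kept to a range of under 2 percentage points, while the Myh2 and Myh1 shares moved against each other: the libraries with 49.1% and 51.4% Myh2 (ns25 and ns27) had 13.3% and 14.5% Myh1, and those with 38.2% and 40.4% Myh2 (ns26 and ns28) had 25.7% and 22.4% Myh1. The EDL libraries differed little, with 12.7% to 13.3% Myh1. The sum of the 4 genes was 5892 ± 344 RPKM in soleus and 10990.0 ± 455 RPKM in EDL, so EDL held more myosin heavy chain message among its RNA.

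**Figure D1:**
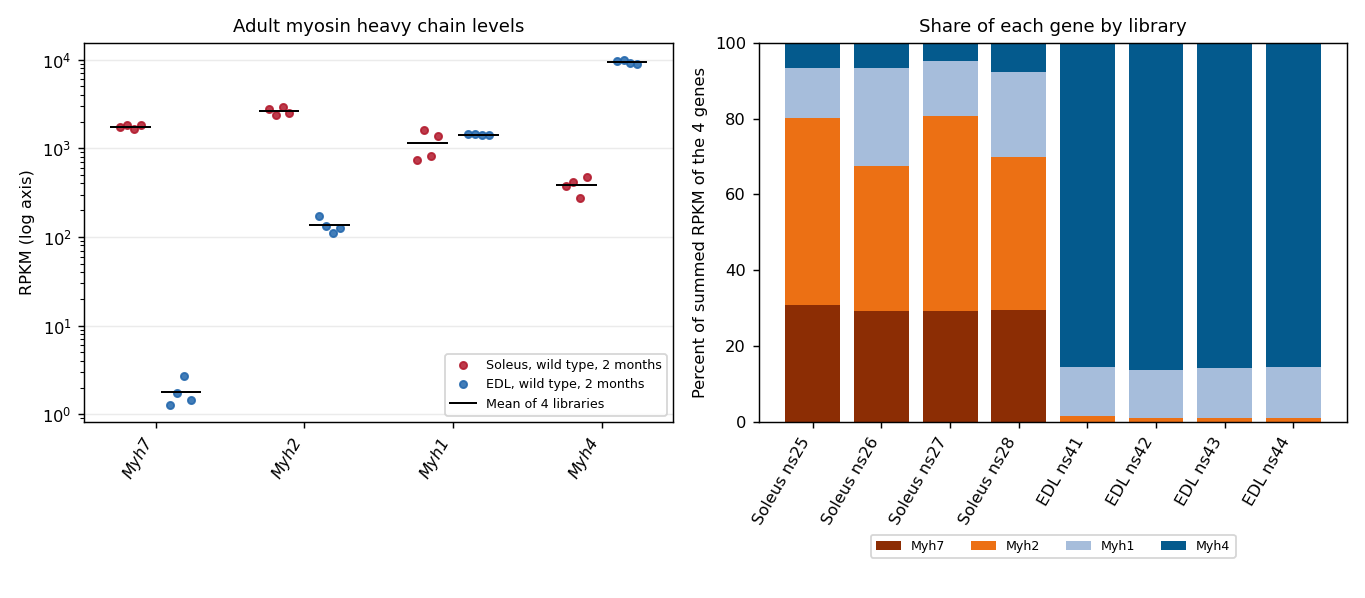
Left, RPKM of the 4 adult myosin heavy chain genes on a log axis, with a point for each library and a bar for the mean of 4, soleus left of EDL within each gene. Right, the share of each gene in the summed RPKM of the 4 in every library: Myh7 and Myh2 fill most of soleus, and Myh4 makes up 85.5% to 86.1% in EDL.

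The promoters of the genes that differed most are shown to give the sequence just upstream of the slow and the fast programme: Myl3 and Myh7 had the largest log2 differences, and Myh4 and Pvalb had the most negative ones among genes with a promoter in the RefSeq table (GRCm38.p6, 250 bases before to 50 bases after the start) other than Mir6240 and Mrgpra6, described further down. Capitals mark matches, on either strand, to TATAAA, to CATTCCT (the MCAT element, read by TEAD factors), to AAGGTCA (read by estrogen-related receptors) and to the MEF2 motif.
Myl3, chr9:110763428-110763727, plus strand: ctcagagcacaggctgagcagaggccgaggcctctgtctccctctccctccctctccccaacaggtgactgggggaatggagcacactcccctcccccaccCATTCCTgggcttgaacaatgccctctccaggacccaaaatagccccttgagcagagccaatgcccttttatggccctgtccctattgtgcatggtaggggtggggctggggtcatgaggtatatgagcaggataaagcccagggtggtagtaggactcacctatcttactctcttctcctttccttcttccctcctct
Myh7, chr14:54994577-54994876, minus strand: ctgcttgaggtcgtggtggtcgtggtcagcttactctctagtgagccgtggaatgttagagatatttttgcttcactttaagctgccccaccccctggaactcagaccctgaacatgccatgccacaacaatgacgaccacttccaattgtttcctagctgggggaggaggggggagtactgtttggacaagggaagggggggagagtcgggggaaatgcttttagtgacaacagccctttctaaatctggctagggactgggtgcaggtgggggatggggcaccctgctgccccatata
Myh4, chr11:67237562-67237861, plus strand: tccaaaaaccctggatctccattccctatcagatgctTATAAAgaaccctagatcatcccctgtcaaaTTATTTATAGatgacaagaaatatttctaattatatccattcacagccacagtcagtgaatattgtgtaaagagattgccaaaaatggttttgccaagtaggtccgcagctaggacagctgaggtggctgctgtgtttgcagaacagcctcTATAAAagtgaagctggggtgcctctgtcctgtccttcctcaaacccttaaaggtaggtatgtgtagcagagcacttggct
Pvalb, chr15:78206351-78206650, minus strand: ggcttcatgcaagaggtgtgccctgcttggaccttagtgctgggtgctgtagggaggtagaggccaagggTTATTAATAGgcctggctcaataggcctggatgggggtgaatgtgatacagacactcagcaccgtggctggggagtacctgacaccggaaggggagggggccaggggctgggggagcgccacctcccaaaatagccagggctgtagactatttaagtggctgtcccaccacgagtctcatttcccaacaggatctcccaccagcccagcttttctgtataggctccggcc

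The Myl3 window held 1 MCAT match, the Myh4 window 3 matches to TATAAA, of which 1 lay inside its MEF2 match on the other strand, and the Pvalb window 1 MEF2 match; the Myh7 window held no match to these 4. E-boxes (CANNTG, not in capitals), read by the MyoD family, numbered 1 in the Myl3 window, 2 in Myh7, 3 in Myh4 and 0 in Pvalb. Myh7 and Pvalb each had 2 listed promoters, of which 1 is shown. A MEF2 match occurred in 5.04% of the 417 RefSeq promoters of 301 genes at least 2-fold higher in soleus. It occurred in 2.83% of the 283 promoters of 214 genes at least 2-fold lower. The shares were 2.02% of the 12125 promoters of genes tested and 3.19% of all 32851 promoters in the table. The AAGGTCA element was in 3.12%, 4.59%, 3.23% and 4.72% of the same sets, and CATTCCT in 5.76%, 4.59%, 4.27% and 5.36%. TATAAA was in 10.6%, 11.7%, 7.51% and 13.6%, and an E-box in 68.6%, 70.0%, 64.1% and 72.3%. Genes with more than 1 promoter count more than once, and genes without a listed promoter are left out. These shares are a description of short windows.

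The slow contractile programme was higher in soleus without exception among the genes listed, which were chosen with earlier results of these data known. All 13 slow sarcomere genes passed as higher, 12 of them at least 2-fold, with a median log2 difference of 5.56 against 0.06 over all genes tested. After quantile normalization 12 of the 13 passed. Myl3, the slow essential light chain, was at 3076, 3248, 3385 and 3393 RPKM in soleus and 4.18, 2.69, 5.21 and 4.36 RPKM in EDL (log2 difference 9.35 ± 0.29 SE, adjusted p = 3.27e-30). Myl2, the slow regulatory light chain, was at 3047, 2812, 2712 and 2757 RPKM in soleus and 3.33, 3.25, 5.27 and 4.75 RPKM in EDL (9.12). Both light chains were close to absent in EDL, 797-fold lower there for Myl3 and 683-fold for Myl2. Tnni1, the inhibitory subunit of slow troponin, was at 859, 801, 747 and 776 RPKM in soleus and 2.34, 2.39, 2.39 and 2.21 RPKM in EDL (7.9). Tnnc1, the calcium-binding subunit, was at 1543 ± 35.9 RPKM in soleus and 5.85 ± 0.719 RPKM in EDL (7.82). Tnnt1, which ties slow troponin to tropomyosin, was at 2181 ± 149.9 RPKM in soleus and 9.72 ± 0.463 RPKM in EDL (7.67). The whole slow troponin complex thus stood at 2.33 to 9.72 RPKM on average in EDL. Tpm3, the slow tropomyosin, was at 822 ± 25 RPKM in soleus and 16.5 ± 1.19 RPKM in EDL (5.56), and Myoz2, a Z-disc protein of slow fibres that binds calcineurin, at 670.4 ± 22.6 RPKM in soleus and 17.1 ± 2.26 RPKM in EDL (5.22). Ankrd2, a stretch-responsive ankyrin-repeat protein, was at 536 ± 119 RPKM in soleus and 25.1 ± 8.29 RPKM in EDL (4.4), and Csrp3, the muscle LIM protein, at 341 ± 95.3 RPKM in soleus and 17.4 ± 7.15 RPKM in EDL (4.27). Myl6b, another slow light chain, averaged 65.5 ± 22.6 RPKM in soleus and 3.83 ± 0.401 RPKM in EDL (3.73), with library ns25 the highest at 97.8 RPKM. The smallest difference was that of Mybpc1, slow myosin-binding protein C, at 1156 ± 52.3 RPKM in soleus and 854 ± 50.9 RPKM in EDL (0.44): EDL contained it nearly as much as soleus, and it was the 1 member that did not pass after quantile normalization (adjusted p = 0.0572).

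Fast sarcomere genes were lower in soleus but were far from absent there. Of 15 tested, 13 were lower (9 at least 2-fold), 1 was higher (Myh2) and 1 did not pass (Myh1); the median was −1.41. After quantile normalization 10 were lower and 3 higher. Actn3, the fast alpha-actinin (chromosome 19, 4861216 to 4877909), was at 101, 135, 61.3 and 169.8 RPKM in soleus and 2158, 2077, 1984 and 1893 RPKM in EDL (log2 difference −4.2 ± 0.47 SE, adjusted p = 1.59e-10), and soleus ranged almost 3-fold between ns27 and ns28. Mybpc2, fast myosin-binding protein C, was at 62.6, 92.1, 42.3 and 116 RPKM in soleus and 1282, 1281, 1241 and 1167 RPKM in EDL (−4.07). Mylk4, a myosin light chain kinase, was at 34.6 ± 12.1 RPKM in soleus and 340.4 ± 16.8 RPKM in EDL (−3.32), and Mylk2, the skeletal muscle light chain kinase, at 62.5 ± 10.3 RPKM in soleus and 247 ± 6.01 RPKM in EDL (−1.98). Myoz1, a Z-disc protein of fast fibres, was at 270.3 ± 43.8 RPKM in soleus and 868 ± 34.9 RPKM in EDL (−1.69). Among the most abundant genes of either muscle, the fast regulatory light chain Mylpf was at 2775 ± 259 RPKM in soleus and 8078 ± 493 RPKM in EDL (−1.54). Myl1, the fast essential light chain, was at 2051 ± 205 RPKM in soleus and 5052 ± 259.7 RPKM in EDL (−1.3). The fast troponin genes differed by less than 2-fold: Tnnc2 was at 5612 ± 246 RPKM in soleus and 11068 ± 343 RPKM in EDL (−0.98), Tnni2 at 3647 ± 49.7 RPKM in soleus and 6212 ± 352 RPKM in EDL (−0.77) and Tnnt3 at 6495 ± 149.7 RPKM in soleus and 10518 ± 557 RPKM in EDL (−0.69). After quantile normalization Tnni2 (0.35) and Tnnt3 (0.30) were higher in soleus, so their direction depends on the scaling, and Tnnc2 did not pass.

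Among troponins and light chains, seen as isoform pairs, soleus was mixed and EDL nearly pure. The slow gene made up 17.9% ± 1.01 of troponin I RPKM in soleus and 0.0376% ± 0.000815 in EDL. It made up 25.1% ± 1.34 of troponin T in soleus and 0.0926% ± 0.00831 in EDL, and 21.6% ± 0.898 of troponin C in soleus and 0.0530% ± 0.0074 in EDL. For the light chains, Myl2 was 50.6% ± 2.89 of Myl2 plus Mylpf in soleus and 0.0517% ± 0.0139 in EDL, and Myl3 was 60.8% ± 1.35 of Myl3, Myl6b and Myl1 in soleus and 0.0807% ± 0.0174 in EDL. The slow share of light chain message in soleus was thus above the 29.7% ± 0.784 that Myh7 held among adult myosins, and the slow share of troponin message below it.

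**Figure D2:**
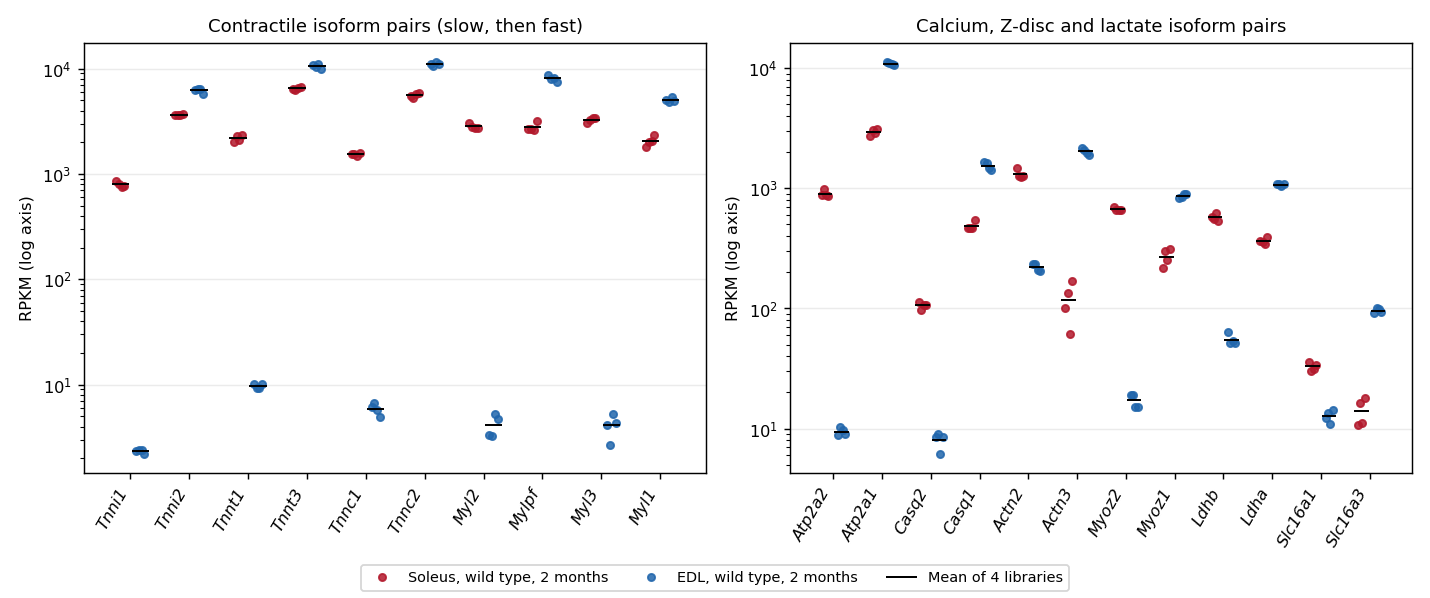
RPKM on a log axis of slow and fast partner genes in every library, soleus left of EDL for each gene, with bars for the means of 4. Slow troponins and light chains (left in each pair) are at 2.33 to 9.72 RPKM on average in EDL, while soleus holds both partners of each of these pairs at high levels.

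Embryonic and cardiac sarcomere genes were low in both muscles with a pair of exceptions. Of 9 tested, 2 were higher and 4 lower in soleus (3 lower without library ns25). Mybph, myosin-binding protein H, was at 8.63, 3.96, 0.736 and 0.776 RPKM in soleus and 45.1, 32.9, 31.6 and 36.2 RPKM in EDL (−3.41). Actc1, cardiac alpha-actin, was at 27.7, 18.9, 20.3 and 21.2 RPKM in soleus and 314, 201, 168 and 151 RPKM in EDL (−3.14), a wide range in EDL with no overlap. Myh3, the embryonic myosin, was at 22, 7.13, 6.35 and 5.43 RPKM in soleus and 1.91, 1.53, 1.56 and 1.88 RPKM in EDL (1.84), with ns25 about 3 times the other soleus libraries.

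Z-disc, M-band and thin-filament genes that serve all fibres went both ways. Of 33, 18 were higher (9 at least 2-fold) and 9 lower, with a median of 0.41. Pdlim1, a PDZ-LIM protein of the Z-disc, was at 186 ± 10.1 RPKM in soleus and 11.4 ± 2.25 RPKM in EDL (3.93). Myom3, the M-band myomesin of intermediate-speed fibres, was at 114, 93.4, 100.4 and 91.2 RPKM in soleus and 7.9, 7.42, 5.48 and 6.1 RPKM in EDL (3.71), and Myom2, its fast partner, at 95.9 ± 11.5 RPKM in soleus and 264 ± 7.98 RPKM in EDL (−1.46). Lmod2, a leiomodin that lengthens thin filaments, was at 451 ± 45.6 RPKM in soleus and 40.7 ± 7.33 RPKM in EDL (3.45), and its relative Lmod3 at 131 ± 9.74 RPKM in soleus and 43.4 ± 1.07 RPKM in EDL (1.57). Tmod1, a thin-filament cap with the opposite activity, was lower at 52.7 ± 4.33 RPKM in soleus and 122 ± 4.06 RPKM in EDL (−1.2). Actn2, the alpha-actinin of all fibres, was at 1312 ± 108 RPKM in soleus and 220.3 ± 17.1 RPKM in EDL (2.57), so that it made up 91.8% ± 3.24 of alpha-actinin RPKM in soleus and 9.79% ± 0.289 in EDL. Fhl1, a LIM protein, was at 1236 ± 90.3 RPKM in soleus and 236 ± 22.9 RPKM in EDL (2.38), and Xirp1, which marks sites of sarcomere remodelling, at 84.1 ± 22.1 RPKM in soleus and 18.9 ± 4.84 RPKM in EDL (2.1). Acta1, skeletal alpha-actin and the most abundant of these genes, was at 14421 ± 742 RPKM in soleus and 13167 ± 916 RPKM in EDL and did not pass (adjusted p = 0.29).

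Calcium handling was in the main lower in soleus. Of 34 genes, 21 were lower and 7 higher, with a median of −0.27. Pvalb, parvalbumin, the soluble calcium buffer that speeds relaxation of fast fibres, was at 227, 341, 162 and 382 RPKM in soleus and 6776, 6945, 6569 and 5823 RPKM in EDL (log2 difference −4.62 ± 0.38 SE, adjusted p = 1.03e-14). Camk2a, a calcium/calmodulin kinase, was at 16.5 ± 1.69 RPKM in soleus and 87.1 ± 4.25 RPKM in EDL (−2.34). Atp2a1, the fast calcium pump SERCA1, was at 2742, 3035, 2879.7 and 3120.4 RPKM in soleus and 11209, 11114, 10794 and 10589.5 RPKM in EDL (−1.89), and Casq1, fast calsequestrin, at 487 ± 38.9 RPKM in soleus and 1544 ± 112 RPKM in EDL (−1.66). The junction proteins that couple the surface to the store followed: Jph2 was at 79.2 ± 3.37 RPKM in soleus and 231 ± 14.9 RPKM in EDL (−1.53) and Jph1 at 51.8 ± 2.2 RPKM in soleus and 117 ± 3.6 RPKM in EDL (−1.17). Slc8a3, a sodium-calcium exchanger, was at 5.18 ± 0.717 RPKM in soleus and 15.5 ± 1.43 RPKM in EDL (−1.42), and Cacng1, a subunit of the voltage sensor, at 38.7 ± 7.95 RPKM in soleus and 87.7 ± 3.48 RPKM in EDL (−1.18). The release channel Ryr1 was at 210.1 ± 12.8 RPKM in soleus and 308 ± 16.8 RPKM in EDL (−0.55).

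The slow calcium genes ran the other way. Atp2a2, the slow and cardiac pump SERCA2, was at 888, 985, 873 and 858 RPKM in soleus and 8.8, 10.3, 9.65 and 9.03 RPKM in EDL (log2 difference 6.43 ± 0.18 SE, adjusted p = 1.60e-31). Sln, sarcolipin, a small inhibitor of the pumps, was at 73.9, 70.9, 50.4 and 59.9 RPKM in soleus and 3.05, 2.83, 2.7 and 3.33 RPKM in EDL (4.01), and its relative Pln, phospholamban, at 3.63 ± 0.697 RPKM in soleus and 1.85 ± 0.429 RPKM in EDL (0.70). Mrln, myoregulin, a pump inhibitor of fast muscle, was lower at 17.4 ± 1.89 RPKM in soleus and 28.4 ± 5.04 RPKM in EDL (−0.67). Casq2, the cardiac and slow calsequestrin, was at 106 ± 6.09 RPKM in soleus and 8.03 ± 1.26 RPKM in EDL (3.58). Atp2a2 made up 23.4% ± 1.38 of the SERCA RPKM in soleus and 0.0865% ± 0.00622 in EDL. Of 11 genes of calcineurin, the calcium-activated phosphatase that promotes slow gene expression, and its targets, 3 were higher and 4 lower. Rcan2 and Rcan1, calcineurin regulators of which Rcan1 is a known target, were higher, at 48.8 ± 3.28 RPKM in soleus and 11.2 ± 0.535 RPKM in EDL (2.03) and 118 ± 40.02 RPKM in soleus and 33.6 ± 9.77 RPKM in EDL (1.77). The catalytic subunits Ppp3cb and Ppp3ca were lower, at 35.2 ± 1.26 RPKM in soleus and 69.4 ± 4.1 RPKM in EDL (−0.96) and 28.2 ± 1.76 RPKM in soleus and 49.4 ± 1.87 RPKM in EDL (−0.79).

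Fatty acid use was the metabolic group with the largest shift upward. Of 25 genes of fatty acid oxidation, 23 were higher in soleus, 18 of them at least 2-fold, and 1 was lower, with a median of 1.19 against 0.06 over all genes. After either rescaling 23 were higher and 1 lower. Acot2, a mitochondrial acyl-CoA thioesterase, was at 30.6 ± 4.71 RPKM in soleus and 6.17 ± 0.735 RPKM in EDL (2.14). Ech1, an isomerase for unsaturated fatty acids, was at 261 ± 20.5 RPKM in soleus and 78.2 ± 3.67 RPKM in EDL (1.72), and Acsl1, which activates long-chain fatty acids, at 150.5 ± 13.3 RPKM in soleus and 48.6 ± 1.05 RPKM in EDL (1.61). Both subunits of the trifunctional protein were higher, Hadhb at 372 ± 33.3 RPKM in soleus and 123 ± 5.78 RPKM in EDL (1.59) and Hadha at 194 ± 13.2 RPKM in soleus and 73.1 ± 0.86 RPKM in EDL (1.4). Acadm, the medium-chain dehydrogenase, was at 276 ± 19.9 RPKM in soleus and 95.9 ± 1.56 RPKM in EDL (1.51). Acaa2, a thiolase, was at 198 ± 16 RPKM in soleus and 68.7 ± 1.9 RPKM in EDL (1.51), and Etfdh, which passes the electrons to ubiquinone, at 109.9 ± 9.56 RPKM in soleus and 39.1 ± 1.1 RPKM in EDL (1.47). The 1 lower gene, Acsl6, another acyl-CoA synthetase, was at 5.52 ± 0.117 RPKM in soleus and 10.8 ± 0.377 RPKM in EDL (−0.85). Ucp3, an uncoupling-protein relative, was at 41.2 ± 13.2 RPKM in soleus and 36.1 ± 8.04 RPKM in EDL and did not pass (adjusted p = 0.718).

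Uptake and storage of lipid went the same way in 16 of 23 genes, with 2 lower and a median of 0.82. Fabp3, the muscle fatty acid-binding protein, was at 1879.5, 1523, 2032 and 1603 RPKM in soleus and 199, 204, 178 and 184 RPKM in EDL (log2 difference 3.19 ± 0.15 SE, adjusted p = 1.86e-23). Dgat2, the last step of triglyceride synthesis, was at 77.5 ± 3.81 RPKM in soleus and 11.7 ± 1.05 RPKM in EDL (2.63), and Lpl, lipoprotein lipase, at 635, 626, 663 and 613 RPKM in soleus and 112, 114, 122 and 107 RPKM in EDL (2.47). Plin5, which ties lipid droplets to mitochondria, was at 27.7 ± 6.42 RPKM in soleus and 5.28 ± 0.342 RPKM in EDL (2.17), and Cd36, the fatty acid translocase, at 193 ± 22.2 RPKM in soleus and 51.6 ± 2.84 RPKM in EDL (1.88). Mgll, monoglyceride lipase, was at 28.5 ± 3.73 RPKM in soleus and 7.66 ± 0.497 RPKM in EDL (1.76). Angptl4, an inhibitor of lipoprotein lipase, was at 4.59, 3.18, 3.93 and 1.51 RPKM in soleus and 0.406, 0.19, 0.292 and 0.175 RPKM in EDL (1.71). Endothelial and adipocyte markers, which share some of these genes, were also higher in soleus (values below), and their part in the lipid result was not tested.

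The respiratory chain was higher in soleus by a smaller and more even amount. Of the 83 genes of the 4 lists of complexes combined, 66 were higher and 0 lower, 1 of them at least 2-fold, with a median of 0.49 (0.493). By complex, 25 of 37 genes of complex I were higher (median 0.38), 13 of 14 of complexes II and III with cytochrome c (median 0.53), 14 of 15 of complex IV (median 0.62) and 14 of 17 of ATP synthase (median 0.45). These small differences depend on scaling: quantile normalization left 13 higher and 7 lower in complex I, 6 and 1 in complexes II and III, 6 and 0 in complex IV and 6 and 2 in ATP synthase, while median-of-ratios scaling left 20, 12, 14 and 9 higher and 1 lower, in ATP synthase. Ndufb3 had the largest difference in complex I, at 172 ± 8.36 RPKM in soleus and 86.9 ± 2.69 RPKM in EDL (0.98). Sdhc, a membrane anchor of succinate dehydrogenase, was at 237 ± 9.6 RPKM in soleus and 133 ± 2.6 RPKM in EDL (0.83). Cox8a was at 48.1 ± 3.27 RPKM in soleus and 21.9 ± 1.06 RPKM in EDL (1.1), while its more abundant muscle isoform Cox8b was at 822 ± 52.3 RPKM in soleus and 471 ± 31.5 RPKM in EDL (0.80). Atp5l, a membrane subunit of ATP synthase, was at 508 ± 41.5 RPKM in soleus and 297 ± 20.5 RPKM in EDL (0.77).

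In the citric acid cycle 1 enzyme stood alone. Of 18 genes, 14 were higher and 1 lower (median 0.38; 6 higher and 4 lower after quantile normalization). Idh2, the mitochondrial isocitrate dehydrogenase that makes NADPH, was at 540.4, 538, 540.3 and 516 RPKM in soleus and 63.5, 55.7, 52.1 and 56.7 RPKM in EDL (log2 difference 3.21 ± 0.11 SE, adjusted p = 2.36e-28), and it was the only one of the list to differ at least 2-fold. Idh3a, a subunit of the NAD-dependent isocitrate dehydrogenase of the cycle, was the 1 lower gene, at 194 ± 14.9 RPKM in soleus and 248 ± 6.01 RPKM in EDL (−0.36). Of 19 genes of mitochondrial biogenesis and dynamics 10 were higher and 0 lower, none at least 2-fold; Tomm20, an import receptor, had the largest difference, at 20.3 ± 0.478 RPKM in soleus and 10.4 ± 0.341 RPKM in EDL (0.91).

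Ketone and pyruvate use held some of the largest metabolic differences. Bdh1, the mitochondrial enzyme that starts the oxidation of ketone bodies, was at 113, 83.3, 116 and 82.5 RPKM in soleus and 2.59, 1.94, 2.69 and 1.8 RPKM in EDL (log2 difference 4.93 ± 0.18 SE, adjusted p = 2.18e-27). Acat1 and Oxct1, the other steps of that pathway, were at 106 ± 6.22 RPKM in soleus and 47.3 ± 2.08 RPKM in EDL (1.15) and 179.9 ± 17.5 RPKM in soleus and 119 ± 11.4 RPKM in EDL (0.59). Of 13 genes around pyruvate dehydrogenase, 10 were higher and 1 lower (6 and 2 after quantile normalization). Pdk4, the kinase that shuts the complex off when fat is burnt, was at 435, 522, 680.2 and 368 RPKM in soleus and 58, 46.2, 53.2 and 49.3 RPKM in EDL (3.22). Pdk1 was at 31.4 ± 0.731 RPKM in soleus and 11.2 ± 0.764 RPKM in EDL (1.4), Pdk2, the most abundant of the family in EDL, was at 160.0 ± 8.47 RPKM in soleus and 175 ± 3.88 RPKM in EDL and did not pass (adjusted p = 0.17; lower after quantile normalization, −0.42 with adjusted p = 6.31e-05, and in the 8 libraries alone, adjusted p = 0.026), and Pdp1, the calcium-activated phosphatase that turns the complex on, was lower at 10.03 ± 1.7 RPKM in soleus and 17.6 ± 1.88 RPKM in EDL (−0.76).

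**Figure D3:**
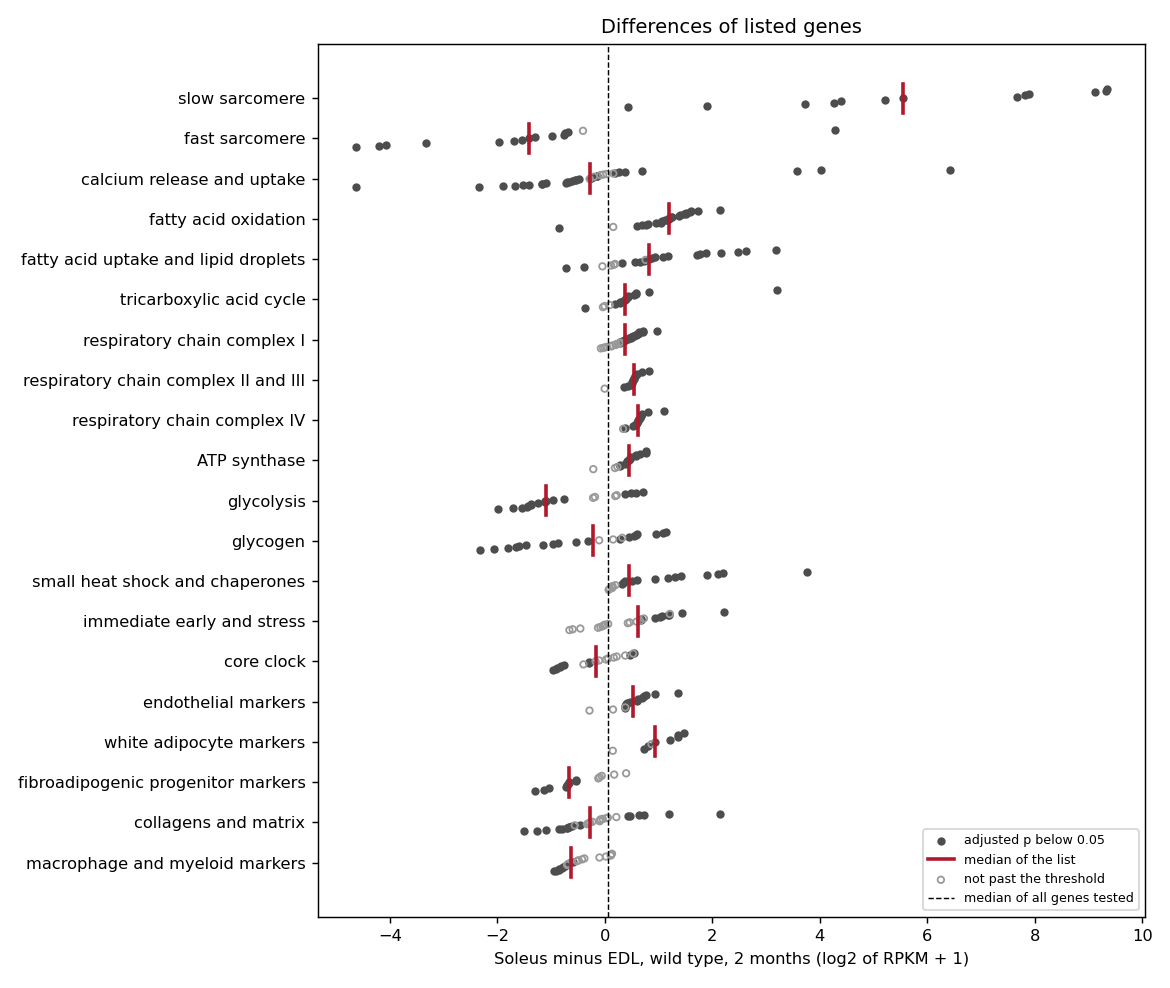
Log2 differences, soleus minus EDL, of the tested members of 20 gene lists, with 1 point for each gene, filled where the adjusted p was below 0.05. Red bars are list medians and the dashed line is the median of all genes tested, 0.0606; slow sarcomere genes lie to the right, fast sarcomere and glycolysis genes to the left.

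Most of the glycolysis genes were lower in soleus. Of 21 genes, 13 were lower, 11 at least 2-fold, and 4 higher (3 without ns25), with a median of −1.09. Pfkfb3 and Pfkfb4, which make the activator of phosphofructokinase, were at 2.61 ± 0.799 RPKM in soleus and 14.1 ± 6.88 RPKM in EDL (−2.0) and 3.69 ± 0.473 RPKM in soleus and 14.4 ± 1.42 RPKM in EDL (−1.72). Ldha, the muscle lactate dehydrogenase, was at 368, 358, 346 and 392 RPKM in soleus and 1086, 1085, 1036 and 1089 RPKM in EDL (−1.55). Fbp2, muscle fructose bisphosphatase, was at 7.6 ± 1.49 RPKM in soleus and 22.5 ± 3.14 RPKM in EDL (−1.46). Aldoa, aldolase, among the most abundant messages, was at 1999.6, 2136, 2044 and 2101 RPKM in soleus and 5526, 5665, 5820.2 and 5340.0 RPKM in EDL (log2 difference −1.43 ± 0.085 SE, adjusted p = 1.36e-19). Eno3, the muscle enolase, was at 926 ± 64.7 RPKM in soleus and 2411 ± 51 RPKM in EDL (−1.38), and Pfkm, muscle phosphofructokinase, at 515 ± 10.4 RPKM in soleus and 1343 ± 32.7 RPKM in EDL (−1.38). Pkm, pyruvate kinase, was at 507 ± 21.1 RPKM in soleus and 1207 ± 37.8 RPKM in EDL (−1.25). The 4 higher genes were Pgam1 (18.2 and 10.6 RPKM on average in soleus and EDL), Pfkfb2 (4.63 and 2.67 RPKM), Pfkl (4.05 and 2.52 RPKM) and Hk2 (129 and 97.1 RPKM); the first 3 are isoforms present at low levels in muscle, and Hk2 is the insulin-regulated hexokinase of muscle, which did not pass without ns25 (adjusted p = 0.166), after median-of-ratios scaling (0.0539) or quantile normalization (0.282), or in the 8 libraries alone (0.0644).

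Glycogen breakdown and storage separated. Of 22 genes, 11 were lower and 8 higher. The phosphorylase kinase subunits had the lowest values relative to EDL: Phkg1 was at 40.4 ± 6.51 RPKM in soleus and 205 ± 3.38 RPKM in EDL (−2.33), Phka1 at 25 ± 0.507 RPKM in soleus and 108 ± 7.49 RPKM in EDL (−2.06) and Phkb at 20.8 ± 1.95 RPKM in soleus and 75.3 ± 2.51 RPKM in EDL (−1.81). Pgm2, a phosphoglucomutase, was at 117 ± 10.04 RPKM in soleus and 369.5 ± 15.4 RPKM in EDL (−1.65), and Pygm, muscle glycogen phosphorylase, at 725, 779.7, 714 and 796 RPKM in soleus and 2309.8, 2338, 2304 and 2164 RPKM in EDL (−1.6). On the synthesis side Gbe1, the branching enzyme, was at 41 ± 0.964 RPKM in soleus and 18.8 ± 1.12 RPKM in EDL (1.08), Ugp2, which makes UDP-glucose, at 275 ± 20.3 RPKM in soleus and 142 ± 14.1 RPKM in EDL (0.95), Gys1, muscle glycogen synthase, at 169 ± 10.7 RPKM in soleus and 111 ± 2.48 RPKM in EDL (0.61) and Gyg, glycogenin, at 257 ± 4.3 RPKM in soleus and 171 ± 6.67 RPKM in EDL (0.59), all higher in soleus. The largest rise in the list was that of Ppp1r1a, a protein phosphatase inhibitor, at 59.7 ± 4.29 RPKM in soleus and 26.7 ± 3.17 RPKM in EDL (1.14).

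Lactate handling showed an exchange of isoforms. Ldhb, the heart-type dehydrogenase, was at 579, 558, 628 and 536 RPKM in soleus and 63.5, 51.3, 53.6 and 51.6 RPKM in EDL (log2 difference 3.37 ± 0.14 SE, adjusted p = 4.48e-25), and made up 61.1% ± 2.74 of Ldha plus Ldhb in soleus and 4.87% ± 0.477 in EDL. Slc16a1, the carrier MCT1 that suits lactate uptake, was at 32.9 ± 2.52 RPKM in soleus and 12.7 ± 1.52 RPKM in EDL (1.31), and Slc16a3, the export carrier MCT4, at 10.7, 16.3, 11.2 and 18.1 RPKM in soleus and 91.4, 101, 98.6 and 93.4 RPKM in EDL (−2.72). The cytosolic NADH shuttles were exchanged too. Gpd1 and Gpd2, the cytosolic and mitochondrial enzymes of the glycerol phosphate shuttle, were lower, at 29 ± 6.8 RPKM in soleus and 239 ± 7.04 RPKM in EDL (−3.02) and 4.08, 4.96, 3.88 and 5.04 RPKM in soleus and 39.1, 39.3, 38.1 and 39.1 RPKM in EDL (−2.87). Mdh1 and Got2 of the malate-aspartate shuttle were higher, at 462 ± 31.3 RPKM in soleus and 176 ± 3.86 RPKM in EDL (1.38) and 344 ± 11.9 RPKM in soleus and 232 ± 12.1 RPKM in EDL (0.57). Gpt2, mitochondrial alanine transaminase and 1 of the 20 largest falls, was at 13 ± 2.49 RPKM in soleus and 104 ± 6.17 RPKM in EDL (−2.93).

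High-energy phosphate and AMPK genes changed subunit by subunit. Of 19 phosphocreatine and purine genes, 8 were lower and 6 higher. Ckm, muscle creatine kinase, was at 4125, 4735, 4447 and 4728 RPKM in soleus and 10018, 9810.4, 9869 and 8746 RPKM in EDL (−1.09, but 0.06 with adjusted p = 0.649 after quantile normalization), and Ckmt2, the mitochondrial form, at 1185 ± 167 RPKM in soleus and 496 ± 45.5 RPKM in EDL (1.25). Ampd1, the muscle AMP deaminase, was at 117 ± 13.3 RPKM in soleus and 364 ± 10.2 RPKM in EDL (−1.63), and Ampd3 at 16.4 ± 2.99 RPKM in soleus and 2.42 ± 0.205 RPKM in EDL (2.33). Among 18 genes of glucose uptake and AMPK, the fuel-sensing kinase, 5 were higher and 7 lower. Prkag3, the AMPK gamma subunit of white muscle, was at 3.58, 4.66, 3.29 and 4.86 RPKM in soleus and 38.7, 36.8, 37 and 34.5 RPKM in EDL (−2.9), and Prkab2, the muscle beta subunit, at 12.7, 14.3, 12.1 and 14.6 RPKM in soleus and 105, 103, 106 and 110.1 RPKM in EDL (−2.9). The catalytic subunit Prkaa2 was at 16.4 ± 1.3 RPKM in soleus and 25.2 ± 2.04 RPKM in EDL (−0.59). Tbc1d4 and Tbc1d1, a related pair that holds back glucose transporter release, went opposite ways, Tbc1d4 at 11.4 ± 2.44 RPKM in soleus and 2.88 ± 0.432 RPKM in EDL (1.67) and Tbc1d1 at 5.09 ± 0.68 RPKM in soleus and 16.9 ± 1.46 RPKM in EDL (−1.56). The transporter itself, Slc2a4, was at 151 ± 11 RPKM in soleus and 139 ± 3.26 RPKM in EDL and did not pass (adjusted p = 0.29); after quantile normalization it was lower in soleus (−0.20, adjusted p = 0.0273).

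Oxygen stores and stress proteins were higher in soleus. Mb, myoglobin, was at 5162, 4908, 5709 and 4875 RPKM in soleus and 1055, 1015, 1267 and 1049 RPKM in EDL (log2 difference 2.24 ± 0.14 SE, adjusted p = 2.72e-19). Car3, the carbonic anhydrase of slow fibres, was at 1095, 1128, 705 and 1137 RPKM in soleus and 116, 139, 97.5 and 173 RPKM in EDL (2.95). Egln3, an oxygen-sensing hydroxylase, was at 46.1 ± 8.68 RPKM in soleus and 13.6 ± 2.11 RPKM in EDL (1.69), and Aqp4, the water channel of fast fibres, was lower at 3.57 ± 1.01 RPKM in soleus and 9.91 ± 0.79 RPKM in EDL (−1.28). Of 20 chaperones 14 were higher and 0 lower (12 higher and 1 lower after quantile normalization), with a median of 0.44. Hspb7, a small heat shock protein of striated muscle, was at 748, 663, 605 and 549 RPKM in soleus and 51.4, 53.8, 38.6 and 41.2 RPKM in EDL (3.77). Cryab, alphaB-crystallin, was at 910.2 ± 113 RPKM in soleus and 210.4 ± 12.7 RPKM in EDL (2.1), and Hspb6 at 1125 ± 118 RPKM in soleus and 454 ± 19.2 RPKM in EDL (1.3). The inducible Hspa1a was at 27.1, 20.5, 18.9 and 20.8 RPKM in soleus and 1.91, 6.99, 5.7 and 2.79 RPKM in EDL (2.2); it and its close copy Hspa1b (1.89) may share reads. Among 26 antioxidant genes 14 were higher and 6 lower, with Mt1, a metallothionein, at 43.6 ± 10.3 RPKM in soleus and 12.5 ± 4.4 RPKM in EDL (1.74) and Gpx3, the secreted glutathione peroxidase, at 24.6 ± 1.8 RPKM in soleus and 72.2 ± 4.16 RPKM in EDL (−1.52).

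The transcription factors known to set fibre type differed on both sides. Of 42 listed, 21 were higher, 8 at least 2-fold, and 13 lower, 8 at least 2-fold (17 higher and 15 lower without ns25, and 16 and 16 after either rescaling). Esrrb and Esrrg, estrogen-related receptors that drive oxidative genes, were at 8.18, 6.54, 7.81 and 6.19 RPKM in soleus and 0.824, 0.89, 0.823 and 0.762 RPKM in EDL (2.16) and 18.5, 12.6, 15 and 10.8 RPKM in soleus and 2.65, 2.38, 2.75 and 3.3 RPKM in EDL (1.99). Their relative Esrra was at 60.3 ± 5.34 RPKM in soleus and 41.4 ± 1.55 RPKM in EDL (0.53). Ppara, the fatty acid-sensing receptor, was at 19.1 ± 3.28 RPKM in soleus and 4.41 ± 0.401 RPKM in EDL (1.88). Ppargc1a, the coactivator PGC-1alpha that drives mitochondrial genes and slow fibres, was at 29.2, 20.02, 25.4 and 21.3 RPKM in soleus and 5.58, 6.07, 5.22 and 6.99 RPKM in EDL (log2 difference 1.83 ± 0.22 SE, adjusted p = 6.58e-10). Vgll2, a TEAD cofactor, was at 145, 75, 80.1 and 82.2 RPKM in soleus and 25.9, 24.6, 23.8 and 26.5 RPKM in EDL (1.83), with ns25 far above the other soleus libraries. Tead1, a reader of the MCAT element, was at 41.7 ± 1.86 RPKM in soleus and 19.97 ± 0.896 RPKM in EDL (1.03). Prox1, a factor that promotes slow fibres, was at 1.48, 1.61, 1.34 and 1.58 RPKM in soleus and 0.262, 0.228, 0.155 and 0.183 RPKM in EDL (1.05), low in both muscles and with no overlap.

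Several members of that list were lower in soleus. Mafa and Maf, large Maf factors that activate Myh4, were at 2.77, 2.9, 1.91 and 3.67 RPKM in soleus and 38.6, 40.4, 28.6 and 28.3 RPKM in EDL (log2 difference −3.2 ± 0.20 SE, adjusted p = 3.86e-19) and 5.66, 6.86, 5.07 and 5.9 RPKM in soleus and 46.2, 53.2, 42.8 and 47.9 RPKM in EDL (−2.82). Six2, a homeobox factor, was at 0.516, 0.286, 0.406 and 0.476 RPKM in soleus and 4.19, 4.49, 4.4 and 3.65 RPKM in EDL (−1.87), and Eya4, a coactivator of such homeobox factors, at 1.36 ± 0.27 RPKM in soleus and 6.81 ± 0.858 RPKM in EDL (−1.73). Myod1, the fast-biased myogenic factor, was at 4.36, 2.22, 2.03 and 2.08 RPKM in soleus and 9.53, 12, 12.7 and 9.75 RPKM in EDL (−1.74), and Myog, its slow-biased relative, was higher at 3.78 ± 0.926 RPKM in soleus and 1.45 ± 0.391 RPKM in EDL (0.96), a call lost without soleus library ns25 (adjusted p = 0.0697) or EDL library ns42 (adjusted p = 0.0714). Tbx15, a T-box factor of glycolytic fibres, was at 41.2 ± 2.92 RPKM in soleus and 103 ± 3.67 RPKM in EDL (−1.31), and Sox6, a repressor of slow genes, at 5.69 ± 0.346 RPKM in soleus and 14 ± 0.904 RPKM in EDL (−1.17). Nrip1, a corepressor of oxidative metabolism, was at 1.49 ± 0.248 RPKM in soleus and 4.22 ± 0.422 RPKM in EDL (−1.07).

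**Figure D4:**
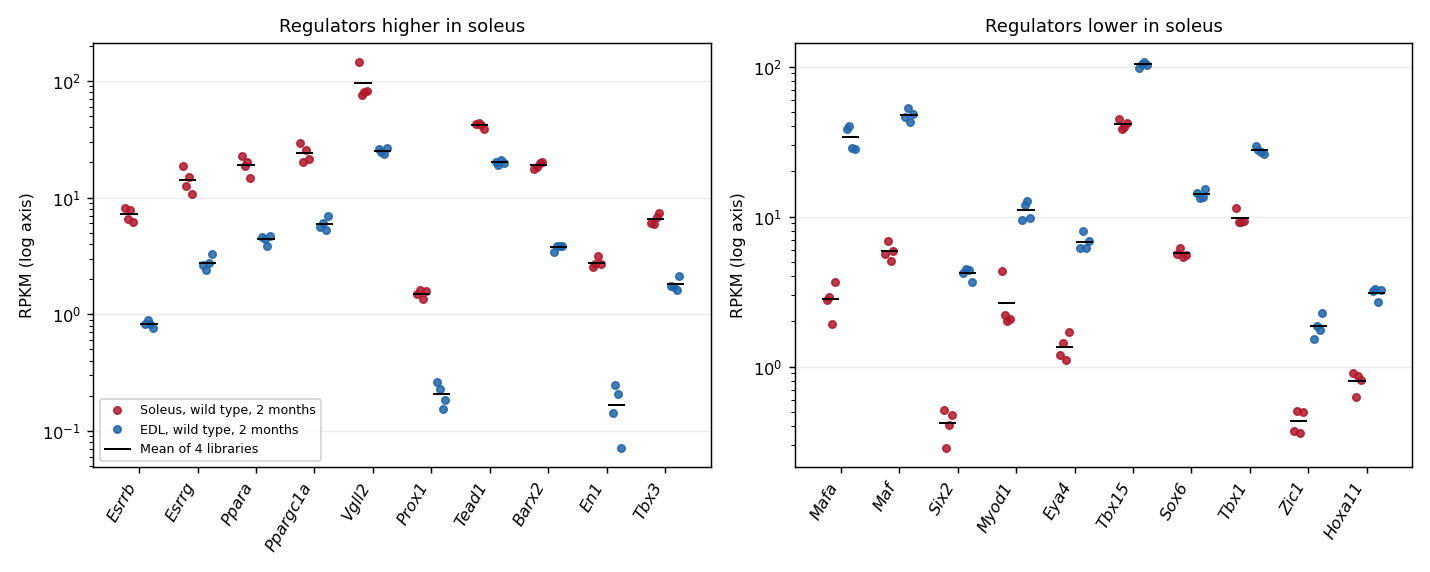
RPKM on a log axis of 10 regulators higher in soleus (left) and 10 lower (right), with a point for each library and a bar for the mean of 4, soleus left of EDL. No gene shown has overlapping groups; the single high soleus points of Vgll2 and Myod1 are library ns25.

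Genes that record where in the limb a muscle formed differed for some members. Of 21 patterning factors 9 were higher and 6 lower. Barx2, a homeobox factor of muscle progenitors, was at 17.6, 18.2, 19.8 and 20.01 RPKM in soleus and 3.44, 3.83, 3.87 and 3.83 RPKM in EDL (2.07). En1, the ventral limb homeobox gene, was at 2.55, 2.71, 3.14 and 2.7 RPKM in soleus and 0.144, 0.25, 0.206 and 0.0713 RPKM in EDL (1.69), and Tbx3, a factor of the posterior limb, at 6.52 ± 0.696 RPKM in soleus and 1.8 ± 0.226 RPKM in EDL (1.42). Tbx1 was lower at 11.4, 9.26, 9.24 and 9.4 RPKM in soleus and 29.5, 27.7, 26.9 and 26.3 RPKM in EDL (−1.4), and Zic1 at 0.434 ± 0.079 RPKM in soleus and 1.85 ± 0.313 RPKM in EDL (−0.99). Of 22 Hox genes above the level filter 6 were higher and 7 lower, against 32.5% and 19.8% of all genes, all at low levels apart from Hoxc10 (24.1 and 28.9 RPKM on average in soleus and EDL). Within the HoxA cluster the 5′ members were lower: Hoxa11 was at 0.909, 0.625, 0.859 and 0.818 RPKM in soleus and 3.2, 3.27, 2.67 and 3.25 RPKM in EDL (−1.18), Hoxa10 at 3.9 ± 0.178 RPKM in soleus and 7.55 ± 0.656 RPKM in EDL (−0.80), Hoxa13 at 0.529 ± 0.0624 RPKM in soleus and 1.63 ± 0.106 RPKM in EDL (−0.78) and Hoxa9 at 2.09 ± 0.0576 RPKM in soleus and 3.91 ± 0.299 RPKM in EDL (−0.67). Hoxa7 (−0.47) and Hoxa3 (−0.26; adjusted p = 0.061 without ns26) were lower too, and Hoxa4 (0.32) and Hoxa5 (0.29) higher. Hoxd8 had the largest rise, at 4.13 ± 0.201 RPKM in soleus and 2.06 ± 0.276 RPKM in EDL (0.75).

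Membrane channel and pump genes differed in both directions. Of 22 genes 7 were higher, near the share over all genes (32.5%), and 9 lower, against 19.8% of all genes. Kcnc4, a fast voltage-gated potassium channel, was at 1.69, 1.89, 1.25 and 2.41 RPKM in soleus and 46.3, 54.5, 40.9 and 48.4 RPKM in EDL (log2 difference −4.12 ± 0.17 SE, adjusted p = 1.81e-25). Of the sodium-potassium pump, Atp1b1 was higher, at 235 ± 26.1 RPKM in soleus and 88.2 ± 6.77 RPKM in EDL (1.4), and Atp1b2 lower, at 10.4 ± 1.78 RPKM in soleus and 68.9 ± 6.01 RPKM in EDL (−2.63). Clcn1, the chloride channel that keeps fibres quiet, was at 23 ± 1.01 RPKM in soleus and 55.9 ± 1.04 RPKM in EDL (−1.24), and Scn4a, the muscle sodium channel, at 46.8 ± 2.06 RPKM in soleus and 88 ± 3.67 RPKM in EDL (−0.90). At the neuromuscular junction 9 of 21 genes were higher and 6 lower (7 and 6 without ns25). Musk, the receptor kinase that organizes the synapse, was at 6.63 ± 1.55 RPKM in soleus and 2.15 ± 0.179 RPKM in EDL (1.26). Gadd45a, a stress gene induced by denervation, was at 5.5 ± 0.629 RPKM in soleus and 24.1 ± 3.47 RPKM in EDL (−1.94), and Ache, acetylcholinesterase, at 5.54 ± 0.56 RPKM in soleus and 22.6 ± 1.1 RPKM in EDL (−1.86). Prima1, its membrane anchor, was at 0.433 ± 0.102 RPKM in soleus and 3.15 ± 0.911 RPKM in EDL (−1.51), while Colq, the collagen tail that holds it in the synaptic cleft, was higher at 5.36 ± 0.634 RPKM in soleus and 2.8 ± 0.231 RPKM in EDL (0.74). Chrne, the adult acetylcholine receptor subunit, was at 3.62 ± 0.565 RPKM in soleus and 9.04 ± 0.357 RPKM in EDL (−1.13).

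Growth-control genes went both ways. Mstn, myostatin, the secreted brake on muscle mass, was at 0.83, 0.974, 0.758 and 1.09 RPKM in soleus and 11.7, 14, 11.5 and 14.1 RPKM in EDL (log2 difference −2.85 ± 0.15 SE, adjusted p = 5.92e-22). Its close relative Gdf11 was at 0.702 ± 0.0829 RPKM in soleus and 3.51 ± 0.408 RPKM in EDL (−1.4), and Igfbp5, an insulin-like growth factor-binding protein, at 57.1 ± 7.91 RPKM in soleus and 170.0 ± 14.6 RPKM in EDL (−1.56). The atrophy ubiquitin ligases Fbxo32 and Trim63 were higher, at 44.3 ± 4.83 RPKM in soleus and 19.4 ± 2.77 RPKM in EDL (1.16) and 81.6 ± 7.85 RPKM in soleus and 50.01 ± 11.7 RPKM in EDL (0.72). In all 7 of 28 genes of this list were higher and 7 lower, which is near the shares over all genes tested (32.5% and 19.8%). Among secreted muscle factors Ostn, osteocrin (musclin), was at 18.8 ± 1.61 RPKM in soleus and 2.31 ± 0.256 RPKM in EDL (2.58), and Fndc5, the irisin precursor, at 74.8, 73, 86 and 76 RPKM in soleus and 19.3, 15.7, 18 and 17.7 RPKM in EDL (2.07). Wnt4 was lower at 1.01 ± 0.0966 RPKM in soleus and 5.5 ± 0.127 RPKM in EDL (−1.69).

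Of 13 genes of a joint list of polyamine and one-carbon metabolism, 4 were lower, each at least 2-fold, and 6 higher. Smox, spermine oxidase, was at 7.68, 9.53, 9.12 and 10.7 RPKM in soleus and 60.8, 69.9, 84.1 and 59 RPKM in EDL (−2.75). Amd1, S-adenosylmethionine decarboxylase, was at 11.6, 16.2, 12.7 and 15.6 RPKM in soleus and 28.5, 35.9, 65.9 and 38.4 RPKM in EDL (−1.47); Amd2 (−1.45) is a near copy of it, so their reads cannot be told apart with certainty. Sms, spermine synthase, was at 17.8 ± 0.948 RPKM in soleus and 39.6 ± 1.5 RPKM in EDL (−1.11). Nos1, neuronal nitric oxide synthase, was the 1 gene of 28 of the dystrophin complex and costamere to differ at least 2-fold. It was at 5.91, 3.93, 5.33 and 3.66 RPKM in soleus and 12.8, 14.5, 17.8 and 14 RPKM in EDL (−1.48). In that list 9 were higher and 7 lower, near the shares over all genes tested (32.5% and 19.8%). The counts were 4 and 10 after quantile normalization, and 7 and 8 without ns25.

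Clock output and immediate early genes respond to the time and handling of dissection. Of 19 clock genes 8 were lower in soleus and 2 higher (1 higher without ns25). Hlf and Tef, clock-driven factors, were at 2.69 ± 0.93 RPKM in soleus and 5.98 ± 0.218 RPKM in EDL (−0.96) and 37.2 ± 5.88 RPKM in soleus and 70.4 ± 2.11 RPKM in EDL (−0.92), and Per2 at 3.79 ± 1.45 RPKM in soleus and 7.2 ± 0.61 RPKM in EDL (−0.83). Of 24 immediate early genes 9 were higher and 0 lower (7 higher without ns25), against 32.5% higher and 19.8% lower over all genes. Atf3, a stress factor, was at 15.1, 26.1, 13 and 20.4 RPKM in soleus and 2.19, 4.35, 2.65 and 3.42 RPKM in EDL (2.22), and Btg2 at 16.7 ± 4.12 RPKM in soleus and 5.4 ± 0.602 RPKM in EDL (1.44). Fos, the archetype, was at 7.86, 2.78, 1.64 and 3.03 RPKM in soleus and 1.34, 0.823, 0.67 and 0.753 RPKM in EDL and did not pass (adjusted p = 0.133). The part of dissection time or handling was not tested.

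Markers of some other cells of the tissue differed in level between the muscles. In bulk RNA, fewer cells of a type and less RNA from each cannot be told apart. Endothelial markers were higher in 15 of 18 genes and lower in 0 (median 0.53), with a summed level of 531 to 598 RPKM in soleus and 275 to 299 RPKM in EDL. Pecam1, the junction protein of endothelium, was at 31.9 ± 2.71 RPKM in soleus and 19 ± 1.15 RPKM in EDL (0.72), and Cdh5, endothelial cadherin, at 35.7 ± 1.97 RPKM in soleus and 23.3 ± 1.22 RPKM in EDL (0.59). Haemoglobin genes, which come from red blood cells, were also higher, with Hbb-b1 at 146 ± 34.9 RPKM in soleus and 63.6 ± 4.2 RPKM in EDL (1.16), and 7 of 9 erythroid genes higher; the globin genes are near copies and cannot be counted as separate.

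White adipocyte markers were higher in 7 of 9 genes, with a summed level of 361 to 407 RPKM in soleus and 128 to 172 RPKM in EDL, most of it from Fabp4, which endothelium also makes. Adipoq, adiponectin, was at 4.9, 8.24, 6.21 and 5.44 RPKM in soleus and 2.75, 1.44, 0.997 and 3.89 RPKM in EDL (1.21), and Cfd, adipsin, at 43.1 ± 11.1 RPKM in soleus and 16.3 ± 8.25 RPKM in EDL (1.47). Neither passed without library ns26 or ns43 (adjusted p = 0.091 for Adipoq and 0.121 for Cfd without ns43); Adipoq was also lost without ns42 and Cfd without ns27. The brown fat gene Ucp1 was at 0 in all 8 libraries. Satellite cell markers were higher in 6 of 12 genes and lower in 1 (4 and 1 without ns25 or after either rescaling); Pax7, their defining factor, was at 0.871 ± 0.119 RPKM in soleus and 0.487 ± 0.0514 RPKM in EDL (0.33).

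Fibroblast-lineage cells and macrophages leaned the other way. Fibroadipogenic progenitor markers were lower in 10 of 15 genes and higher in 0 (median −0.66), summing to 551 to 691 RPKM in soleus and 963 to 1083 RPKM in EDL. Pdgfra, their defining receptor, was at 3.65 ± 0.834 RPKM in soleus and 6.59 ± 0.226 RPKM in EDL (−0.72). Of 31 matrix genes 11 were lower and 6 higher (15 and 4 without ns25). Col1a1 and Col1a2, the chains of type I collagen, were at 152 ± 25 RPKM in soleus and 435 ± 83 RPKM in EDL (−1.5) and 199 ± 12 RPKM in soleus and 484 ± 69.7 RPKM in EDL (−1.27). Postn, periostin, was higher at 94.5, 18.4, 20.1 and 16.6 RPKM in soleus and 5.72, 7.94, 4.36 and 4.5 RPKM in EDL (2.15), and basement membrane collagen Col4a2 at 42.8 ± 3.2 RPKM in soleus and 30.7 ± 2.18 RPKM in EDL (0.46). The part of fibroblast content in the collagen result was not tested.

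Macrophage markers were lower in 9 of 20 genes (14 without ns25) and higher in 0, against 19.8% lower and 32.5% higher over all genes. Of the 20, 4 were lower with no overlap between the groups, close to the 20.7% of all genes that were. In the other groups 4 of the 20 were lower at 5 months and 2 in mdx, against 17.7% and 20.2% of all genes. Mrc1 and Cd163, receptors of resident macrophages, were at 2.54 ± 0.765 RPKM in soleus and 5.72 ± 0.5002 RPKM in EDL (−0.94) and 2.85 ± 1.13 RPKM in soleus and 6.12 ± 1.18 RPKM in EDL (−0.91). Lyz2, lysozyme, was at 60.5, 25.2, 24.8 and 23.8 RPKM in soleus and 38.4, 72.5, 42.6 and 56.6 RPKM in EDL and did not pass (adjusted p = 0.061); soleus library ns25 was above the other 3 by more than 2-fold, and without it Lyz2 passed as lower (−1.02, adjusted p = 0.0083), as it did without EDL library ns41 (adjusted p = 0.0411). Counts for Schwann cell, smooth muscle and tenocyte markers were near or below the shares over all genes (32.5% higher and 19.8% lower). Schwann cell markers were lower in 2 of 13 (1 without ns25, 4 after either rescaling). Smooth muscle and pericyte markers were higher in 5 of 14 and lower in 1, and Acta2 was at 24 ± 3.22 RPKM in soleus and 14 ± 1.03 RPKM in EDL and did not pass (adjusted p = 0.064; higher in the 8 libraries alone, adjusted p = 5.95e-05). Tenocyte and cartilage markers were higher in 2 of 13 and lower in 2, and Tnmd, tenomodulin, was at 24 ± 2.67 RPKM in soleus and 23.3 ± 2.28 RPKM in EDL (adjusted p = 0.934). The lymphocyte gene Cd3e was near 0, at most 0.0834 RPKM in soleus and 0.213 RPKM in EDL.

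The remaining genes among the 20 largest rises and the 20 largest falls have less settled roles in fibre type. Pcp4l1, a calmodulin-binding peptide, was at 102 ± 9.03 RPKM in soleus and 5.73 ± 1.03 RPKM in EDL (3.95), and Ppp1r27, a phosphatase regulatory subunit, at 242 ± 33.2 RPKM in soleus and 14.9 ± 1.79 RPKM in EDL (3.93). Mhrt, a noncoding RNA annotated on chromosome 14, 54968678 to 54974349, overlapping the Myh7 gene, was at 33.9 ± 0.674 RPKM in soleus and 0.0768 ± 0.0785 RPKM in EDL (5.02); whether counting used strand is not stated, so its reads cannot be told apart from those of Myh7. Tspan8, a tetraspanin, was at 1.23, 2.15, 0.876 and 1.9 RPKM in soleus and 36, 36.9, 39 and 43.1 RPKM in EDL (−3.99). Cntfr, the ciliary neurotrophic factor receptor, was at 2.42 ± 0.351 RPKM in soleus and 38.1 ± 10.1 RPKM in EDL (−3.49), Cyp4f39, a cytochrome P450, at 0.104, 0.112, 0.0286 and 0.319 RPKM in soleus and 8.98, 10.8, 9.55 and 10.1 RPKM in EDL (−3.25), and Tmem233, a transmembrane protein, at 10.2 ± 2.76 RPKM in soleus and 85.4 ± 7.44 RPKM in EDL (−2.98).

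The 2 most negative differences belonged to genes outside all the lists. Mir6240 (chromosome 5, 114851948 to 114852064), a microRNA gene, was at 0, 0, 0.256 and 0.429 RPKM in soleus and 88.6, 70.3, 72.7 and 76.2 RPKM in EDL (−6.07, adjusted p = 2.62e-04). Mrgpra6, a sensory-neuron receptor gene (chromosome 7, 47185707 to 47204920), was at 0.0158, 0.0544, 0.0364 and 0.0362 RPKM in soleus and 44.2, 43.2, 43.8 and 47.7 RPKM in EDL (−5.46, adjusted p = 1.31e-04). Both were as high in the other EDL groups, with group medians of 65.1 to 148 RPKM for Mir6240 and 45.2 to 60.7 RPKM for Mrgpra6. Both were near 0 in wild-type FDB at 2 months, at most 0.258 and 0.073 RPKM. In mdx muscle at 5 months the same genes split libraries of one group: Mrgpra6 ranged from 0.0161 to 88.2 RPKM over 7 FDB libraries and from 0 to 65.2 RPKM over 7 soleus libraries. Their levels thus did not follow the muscle in every group, and the differences at 2 months may not reflect muscle; the cause was not tested. Polyadenylated libraries do not measure mature microRNAs, so the Mir6240 value is reads over its locus.

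FDB was set beside both muscles for the same genes. Of the 410 genes at least 2-fold higher in soleus than in EDL, the FDB mean lay between the other two for 262, above both for 67 and below both for 81. Of the 297 genes at least 2-fold lower in soleus, it lay between for 193, above both for 63 and below both for 41. These genes were chosen for a wide gap between soleus and EDL, which by itself favours a mean in between. No share over all genes is given, so the counts are descriptions. Myh7 was at 254 ± 17.9 RPKM in FDB, Myh2 at 2034 ± 191 RPKM and Myh4 at 571 ± 55.8 RPKM, and Atp2a2 at 43 ± 0.68 RPKM.

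The contrast was repeated in libraries that share none with the first: wild-type soleus and EDL at 5 months, and mdx soleus and EDL at 2 months. Mir6240 and Mrgpra6 separated EDL from soleus in both repeats as well. Median Mrgpra6 was 45.2 RPKM in EDL and 0.0182 RPKM in soleus at 5 months, and 60.7 and 0.028 RPKM in mdx. Whether the contrasts share a difference other than muscle was not tested. At 5 months 6823 genes passed (54.4% of those tested, 36.7% higher and 17.7% lower in soleus), and in mdx 5703 (45.5%, 25.3% higher and 20.2% lower). At 5 months the split was 3238 higher and 3647 lower after median-of-ratios scaling and 3272 and 3392 after quantile normalization, against 4603 and 2220 as deposited. Of the 4073 genes higher in soleus at 2 months, 3555 (87.3%) were also higher at 5 months, which is 77.2% of those higher then; of the 2487 lower, 1850 (74.4%) were also lower, 83.3% of those lower at 5 months. In mdx the shares were 67.9% of the higher and 74.3% of the lower genes, 87.2% and 73.0% of those called in mdx. Of the genes at least 2-fold different, 98.5% of the higher and 96.3% of the lower were called in the same direction at 5 months, and 95.1% and 93.9% in mdx. Across the 6560 genes called at 2 months, the differences correlated with those at 5 months (Pearson's r = 0.964) and in mdx (r = 0.941); genes are not independent replicates, and these are descriptions.

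In both repeats the slow sarcomere and fatty acid oxidation medians stood above 0 and the glycolysis median below it; the fibroadipogenic progenitor and immediate early medians lay nearer 0 in mdx than in wild type. The slow sarcomere median was 6.08 at 5 months and 4.91 in mdx, the fatty acid oxidation median 1.21 and 1.15, and the glycolysis median −1.15 and −0.97. The fibroadipogenic progenitor median was −0.40 at 5 months and −0.097 in mdx, with 7 and 5 genes lower and 0 and 1 higher. Immediate early genes had medians of 0.34 and 0.041, with 8 and 6 genes higher and 1 and 3 lower.

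**Figure D5:**
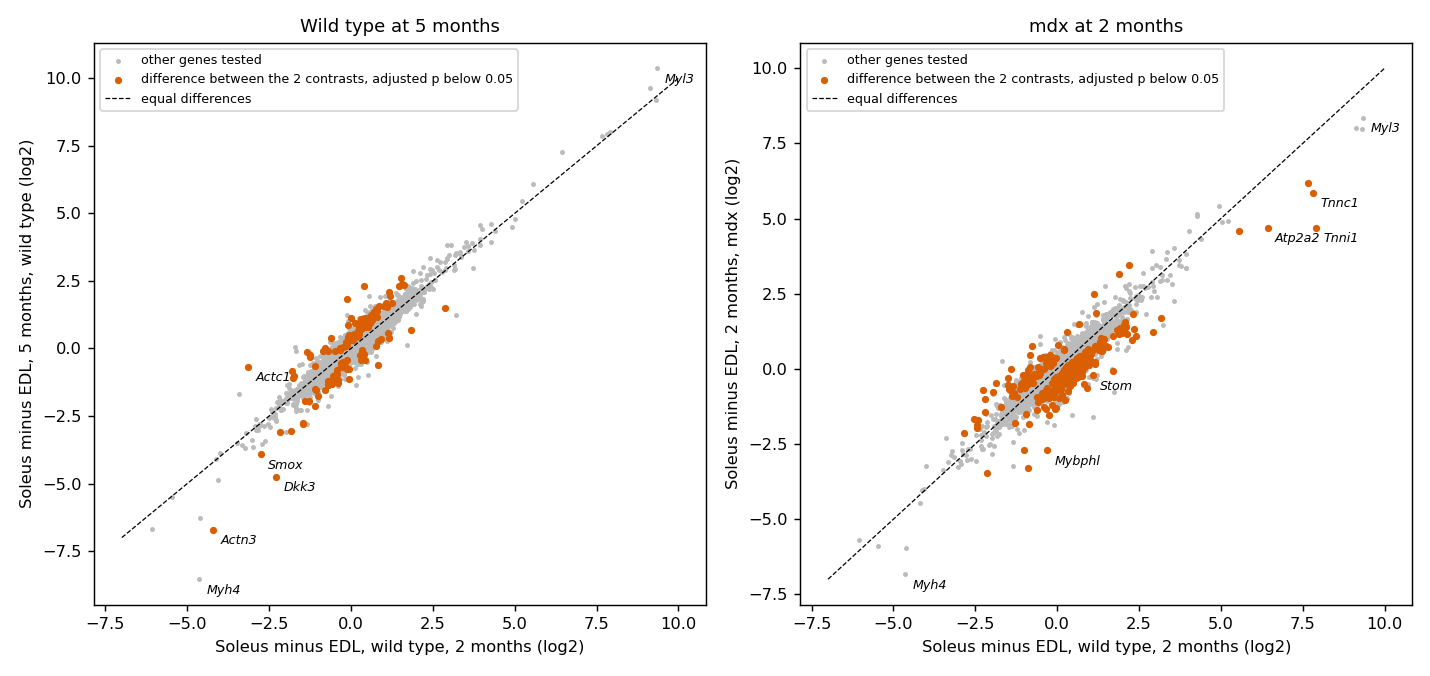
Log2 difference, soleus minus EDL, of every gene tested in wild type at 2 months (horizontal axes) against wild type at 5 months (left) and mdx at 2 months (right). Orange points are the 131 and 295 genes whose difference itself differed between the contrasts; most genes lie near the dashed line of equal differences.

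A test of the difference between the 5-month and 2-month contrasts passed for 131 genes (1.04%), 82 upward (0.654%) and 49 downward (0.391%; 93 and 140 after median-of-ratios scaling, 73 and 73 after quantile normalization). The count was 82, 84, 87, 78, 81, 75 and 85 without ns26, ns27, ns28, ns30, ns41, ns44 and ns45, in that order, 1 library at a time. Of the 131 genes, 103 had the larger difference at 5 months. Since both contrasts enter the test, these genes also depend on the 8 libraries at 2 months. Dkk3, a Wnt-pathway modulator, had the smallest p: at 5 months it was at 0.549 ± 0.247 RPKM in soleus and 41.4 ± 9.48 RPKM in EDL, and at 2 months at 1.15 ± 0.146 RPKM in soleus and 9.63 ± 2.46 RPKM in EDL (log2 difference −4.76 at 5 months and −2.28 at 2 months, change −2.48, adjusted p = 2.28e-08). Prune2 (0.94, adjusted p = 7.63e-06) and Enpp2, which makes lysophosphatidic acid (0.76, adjusted p = 7.85e-05), moved further up in soleus relative to EDL. Slc2a3, a glucose transporter (−0.67, adjusted p = 2.14e-05), and Cacng7 (−1.03, adjusted p = 3.88e-04) moved further down. Cpz, a carboxypeptidase (1.22, adjusted p = 3.25e-05), and Inha, the inhibin alpha subunit (0.94, adjusted p = 3.95e-05), had smaller differences at 5 months. The polyamine genes Amd1 (−1.31, adjusted p = 1.76e-04) and its copy Amd2 (−1.35, adjusted p = 3.88e-04) widened, with Amd1 at 12.7 ± 1.71 RPKM in soleus and 92.6 ± 14.2 RPKM in EDL at 5 months. Smox and Sms of the same list widened too (−1.17 and −0.41, adjusted p = 4.94e-04 and 0.0192). Ppargc1a narrowed to 9.65 ± 0.69 RPKM in soleus and 5.62 ± 0.839 RPKM in EDL at 5 months (change −1.14, adjusted p = 0.0491), and Actc1 to 26.4 ± 2.98 RPKM in soleus and 44.4 ± 13.6 RPKM in EDL (2.47, adjusted p = 0.0209). Actn3 had a mean of 31.7 ± 40.1 RPKM in soleus and 1970.0 ± 146 RPKM in EDL at 5 months (−2.51, adjusted p = 0.0452). The change of Ppargc1a was lost whichever single library was left out, and that of Actn3 was lost without most single libraries. That of Actc1 was lost without ns41 or ns45 (adjusted p = 0.0663 and 0.0685) and that of Sms without ns28, ns41 or ns45. Gm5177, another of the 10 smallest p, changed by 1.94 (adjusted p = 2.40e-04).

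The difference between muscles itself differed between mdx and wild type at 2 months for 295 genes (2.35%), 82 upward (0.654%) and 213 downward (1.7%; 160 and 220 after median-of-ratios scaling, 166 and 191 after quantile normalization; 194 in all without mdx EDL library ns35), and in 216 of them the mdx difference was the smaller. Tnni1, Tnnc1, Tnnt1 and Tpm3, 4 of the 13 slow sarcomere genes, were among them, as was the calcium pump gene Atp2a2, and each had a smaller difference in mdx. Tnni1 was at 941 ± 204 RPKM in mdx soleus and 40.6 ± 23.4 RPKM in mdx EDL (log2 difference 4.7 in mdx and 7.9 in wild type, adjusted p of the change = 8.19e-05). Atp2a2 was at 755 ± 57.3 RPKM in mdx soleus and 28.6 ± 6.59 RPKM in mdx EDL (change −1.73, adjusted p = 1.64e-05). Tnnc1 changed by −1.96 (adjusted p = 0.00145), Tnnt1 by −1.48 (adjusted p = 0.00913; 0.059 after quantile normalization) and Tpm3 by −0.98 (adjusted p = 0.0174; 0.119 after quantile normalization and 0.0608 without ns35). Myh7 was at 1562 ± 269 RPKM in mdx soleus and 7.78 ± 7.95 RPKM in mdx EDL, and its change of −1.33 did not pass (adjusted p = 0.279).

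The 10 smallest p of that test belonged to other genes. Mybphl, a relative of myosin-binding protein H, was at 0.00735 ± 0.00842 RPKM in mdx soleus and 5.75 ± 1.7 RPKM in mdx EDL, and at 0 RPKM in all 4 wild-type soleus libraries and 0.23 ± 0.0518 RPKM in wild-type EDL (change −2.41, adjusted p = 3.06e-13). Stom, stomatin, a membrane protein, was at 25.5 ± 2.85 RPKM in mdx soleus and 29.6 ± 2.04 RPKM in mdx EDL (−1.3, adjusted p = 6.94e-11). Lrtm1 (−1.68, adjusted p = 1.10e-08), Mdfi, an inhibitor of MyoD-family factors (−1.27, adjusted p = 1.38e-08), Ift27 (−1.05, adjusted p = 5.00e-08) and Ttc9 (−1.32, adjusted p = 1.38e-07) moved down in soleus relative to EDL. Itga4, an integrin of immune cells (1.4, adjusted p = 1.40e-10), Frzb, a secreted Wnt antagonist (1.53, adjusted p = 4.17e-08), Kazald1 (1.19, adjusted p = 9.99e-08) and Mtus2 (0.79, adjusted p = 9.99e-08) moved up. Mstn narrowed to 0.592 ± 0.139 RPKM in mdx soleus and 5.93 ± 0.465 RPKM in mdx EDL (0.73, adjusted p = 0.045), a call lost without most single libraries. Myh7, Myh2 and Myh4 kept their direction in both repeats. Their log2 differences were 9.19, 4.6 and −8.54 in wild type at 5 months. In mdx at 2 months they were 7.98, 5.07 and −6.84. Myh4 varied widely in soleus at 5 months, at 115 ± 208 RPKM, and its difference did not pass as changed in either repeat.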

How the data were processed

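The members and gene lists were chosen with earlier results of these data known. RNA was polyadenylated RNA from whole muscle, extracted with Trizol and PureLink columns and made into NEBNext libraries, per the labels' protocols. CASAVA 1.8.2, TopHat2 2.1.0 and Partek 6.6 with build mm10 were used, per the submitters' processing notes; annotation, strandedness and treatment of multiply mapped reads were not given in the sources used here. The values are RPKM per gene as deposited by the authors, 1 column per library. Columns name groups but carry no replicate number.

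A limma 3.58.1 model (R 4.3.3) with 12 group means was fitted to log2(RPKM + 1) of all 55 libraries, with a trended prior variance, keeping the 12541 genes that averaged 0.5 RPKM or more. P-values were adjusted by Benjamini-Hochberg over all these genes, two-sided, with a threshold of 0.05. The log2 scale with a pseudocount of 1 understates changes of low genes. Values after ± are SDs over 4 libraries unless SE is stated, a bracketed number after a pair of levels is the log2 difference, soleus minus EDL, and every adjusted p is limma's. Ratios in fold are of mean RPKM. The counts of list members cover those that passed the level filter, which uses the mean over all libraries.

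Depth was estimated from the steps of low values: 88.5% to 96.9% of low values in the 8 libraries came within 0.1 of a whole read. No library pair of 28 was identical. In simulated data with 50 genes changed at each size, the fit for the main contrast recovered 92% at 1.5-fold, 94% at 2-fold and 100% at 4-fold and 8-fold, and called 10 unchanged genes. Positions are GENCODE M21. Named genes were Myh7 and Myh4, the 20 largest rises and 20 largest falls with at least 1 RPKM in either muscle and no overlap, passing members of lists in order of size up to 8 a direction with their family partners, the 10 smallest p of each interaction test, defining markers of other cell types and the 10 most abundant genes past the threshold. Predicted and uncharacterised gene names were left out of the largest differences. Python 3.11.15, pandas 2.3.3, numpy 2.4.6 and matplotlib 3.10.9 made tables and plots. Alternatives were another pseudocount, no filter, another filter, 2 rescalings, the 8 libraries alone and leaving out each library; leaving out libraries in the other contrasts, and list counts under rescaling or without ns25, were chosen after seeing the data. A few genes that the rule names are not reported here.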

Additional observations from a re-analysis of the deposited data

Results flagged for a closer look

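In groups of 4, a library far from the other 3 by Dixon's test at the 95% level was found for 39 of 488 groups of values of the 244 genes named, and chance flags about 1 in 20. Of these, 17 were values of soleus library ns25. Numbers in brackets are RPKM of the outlying library. Soleus library ns25 lay above the other 3 for Actn2 (1474), Ankrd2 (714), Cd163 (4.53), Col1a1 (190), Hk2 (183), Hspa1b (16.1), Itga4 (0.534), Lyz2 (60.5), Mrc1 (3.68), Musk (8.96), Myh3 (22), Myod1 (4.36), Pdgfra (4.89), Pfkl (5.8), Postn (94.5), Tbx1 (11.4) and Vgll2 (145). Soleus library ns26 lay above the other 3 for Cpz (0.463) and Scn4a (49.9). Soleus library ns27 lay above the other 3 for Oxct1 (206), and below them for Car3 (705). Soleus library ns28 lay above the other 3 for Casq1 (545) and Mylpf (3161), and below them for Idh2 (516). EDL library ns41 lay below the other 3 for Barx2 (3.44). EDL library ns42 lay above the other 3 for Acta2 (15.5) and Cntfr (53), and below them for Fbxo32 (15.3). EDL library ns43 lay above the other 3 for Ckmt2 (563), Cox8b (518) and Mb (1267), and below them for Gdf11 (2.91), Gpd2 (38.1), Hoxa11 (2.67), Ldha (1036) and Ppp1r27 (12.3). EDL library ns44 lay above the other 3 for Tef (73.6), and below them for Chrne (8.51) and Ckm (8746).

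The soleus minus EDL difference itself differed between contrasts, by limma's interaction test over all genes with an adjusted p below 0.05, for the named genes that follow. Between 5 and 2 months the log2 changes were Actc1 (2.47), Actn3 (−2.51), Amd1 (−1.31), Amd2 (−1.35), Cacng7 (−1.03), Cpz (1.22), Dkk3 (−2.48), Enpp2 (0.76), Gm5177 (1.94), Hoxa7 (0.40), Inha (0.94), Ppargc1a (−1.14), Prune2 (0.94), Slc2a3 (−0.67), Smox (−1.17) and Sms (−0.41). Between mdx and wild type at 2 months they were Ampd3 (−1.02), Angptl4 (−1.79), Atp2a2 (−1.73), Cacng7 (0.61), Cpz (0.75), Dkk3 (1.59), En1 (−0.60), Enpp2 (−0.53), Fbp2 (0.84), Fbxo32 (−1.001), Fndc5 (−0.50), Frzb (1.53), Gbe1 (−0.47), Gpx3 (0.99), Hoxa13 (0.44), Hspa1a (1.27), Hspa1b (1.26), Ift27 (−1.05), Itga4 (1.40), Kazald1 (1.19), Lrtm1 (−1.68), Mdfi (−1.27), Mstn (0.73), Mtus2 (0.79), Mybphl (−2.41), Ppp1r1a (1.36), Stom (−1.30), Tnnc1 (−1.96), Tnni1 (−3.20), Tnnt1 (−1.48), Tpm3 (−0.98) and Ttc9 (−1.32). Both tests use the same 8 wild-type libraries at 2 months, so Cacng7, Cpz, Dkk3 and Enpp2, found in both, are not independent in them. Genes were chosen in part for these results.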

How the results depend on the processing

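No paired analysis was possible because the table's columns carry no replicate number. The count for soleus against EDL in wild type at 2 months stayed between 6240 and 7576 genes under the 6 settings tried, and between 6049 and 6194 with 1 library left out. Rescaling moved the share higher in soleus to 49.5% (median-of-ratios) and 48.7% (quantile), against 62.1%; the cause was not tested. At 5 months leave-one-out counts were 6356 to 6554 and in mdx 5157 to 5414. The change with age gave 233 genes after median-of-ratios scaling, against 131, and 75 to 164 with 1 library left out; the difference between mdx and wild type gave 194 to 340, against 295, and 392 without a filter. Quantile normalization reversed Ckm (0.057), Slc2a4 (−0.201), Tnni2 (0.352) and Tnnt3 (0.303). Of 244 named genes, 20 crossed the threshold or changed direction in at least 1 setting for the main contrast, 5 of 16 for the change with age and 10 of 32 for mdx against wild type. In the main contrast the others that changed were as follows. Cox8b, Tnnc2, Mybpc1 and Hk2 were lost after quantile normalization, Hk2 also after median-of-ratios scaling, in the 8 libraries alone and without ns25. Pdk2 passed after quantile normalization, Ift27 and Lyz2 after either rescaling, Fos with a pseudocount of 0.1 RPKM, and Acta2, Fos, Gm5177 and Pdk2 in the 8 libraries alone. Mybphl was lost without a filter and without any single library. Adipoq, Cfd, Hoxa3, Myog, Myh1 and Lyz2 crossed the threshold without 1 to 3 of the single libraries. Of the changes with age, Actn3, Ppargc1a, Hoxa7, Actc1 and Sms were lost without single libraries, Actn3 and Ppargc1a also without a filter, Ppargc1a with a pseudocount of 0.1 RPKM, and Actn3 and Hoxa7 after quantile normalization. Of the mdx changes, Mstn, Cacng7, Fndc5, Hspa1a, Hspa1b, Hoxa13, Angptl4 and Tpm3 were lost without single libraries (Angptl4 without ns17 or ns35). Mstn, Cacng7, Cpz and Hoxa13 were lost with a pseudocount of 0.1 RPKM, Mstn and Cacng7 without a filter, Mstn, Fndc5, Tnnt1 and Tpm3 after quantile normalization, and Fndc5 after median-of-ratios scaling. EDL had fewer reads, so low genes are less certain there.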
